A study of Homo sapiens with 13 samples.

Results

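The comparison of TCF7L2 with LEF1 in cells without glucocorticoid rests on 6 of the 13 samples of the series: the 3 control libraries made with a TCF7L2 antibody and the 3 made with a LEF1 antibody, chosen by these words in the names of the peak lists. All 6 came from Nalm6, an established human line of B-cell precursor acute lymphoblastic leukaemia, grown in medium with charcoal-stripped serum, which is depleted of steroid hormones (so the growth protocol; the series text speaks of standard culture). Cells were profiled by CUT&RUN, in which an antibody tethers a nuclease to chromatin and the DNA cut free is sequenced. The controls carry no treatment in the sample labels, and the protocol names a vehicle for 24 h; the series states that replicates are independent experiments. Both antibodies are rabbit monoclonals, and the amount used is given for LEF1 but not for TCF7L2, so a difference between the factors and a difference between the antibodies cannot be told apart in what follows. The lists hold no read counts, so the depth of each library is unknown. The IgG sample was not analysed here, so that signal unrelated to the antibodies could not be subtracted from any value below.

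LEF1 and TCF7L2 belong to the TCF/LEF family of transcription factors. Both bind DNA through a closely similar HMG box that recognises the same short element, and both recruit beta-catenin when canonical Wnt signalling is active, whereas without it they associate with TLE co-repressors. LEF1 is known in early lymphocytes and is often highly expressed in acute lymphoblastic leukaemia. TCF7L2, also called TCF4 (a name that an unrelated basic helix-loop-helix gene bears as well), is best known as the Wnt effector of the intestinal epithelium.

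The strongest peaks of the antibodies fell into loci that both held and loci that only one held. From every list the 20000 peaks with the highest −log10 p-value of the authors were taken (top peaks), and those of the 6 lists that overlapped by at least 1 bp were merged into 56686 regions. Of these, 2501 regions (4.41% of all) had a top peak in all 3 libraries of both antibodies and are called shared. Another 3861 regions (6.81%) had a top peak in all 3 LEF1 libraries and in no TCF7L2 library, and are called LEF1-only. The opposite pattern, TCF7L2-only, was met by 1768 regions (3.12%). With 3 libraries against 3, no region can pass a threshold of 0.05 by itself, so these counts are descriptions.

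Among all 11339 regions with LEF1 in its 3 libraries, 22.1% were shared (exact 95% Clopper-Pearson interval 21.3% to 22.8%), 34.1% were LEF1-only and the remaining 4977 had TCF7L2 in 1 or 2 libraries. For the 5220 regions with TCF7L2 in its 3 libraries the shared part was 47.9% (46.5% to 49.3%), the TCF7L2-only part was 33.9%, and 951 had LEF1 in 1 or 2 libraries. These intervals cover counting error only. The other 42628 regions were complete for neither antibody, and 31463 regions, or 55.5% of all, rested on a single library. Single-library regions were mostly from TCF7L2, with 23474 against 7989 for LEF1.

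**Figure D1:**
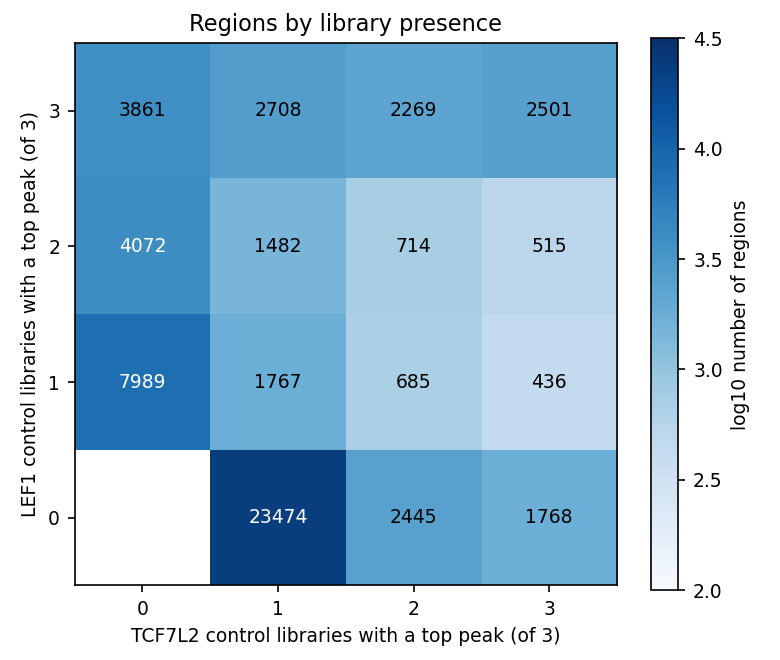
Number of regions by the number of LEF1 control libraries (vertical axis) and TCF7L2 control libraries (horizontal axis) that have a top peak there, with shading on a log10 scale. The 3 corners that carry the classes hold 2501, 3861 and 1768 regions, and the fullest cell is that of a single TCF7L2 library, with 23474.

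Most of the exclusive regions overlapped a lower-ranked interval in a complete list of the other antibody. These complete lists reach far down: 78.3%, 51.1% and 48.4% of all TCF7L2 peaks in replicates 1 to 3 had a q-value of 1, against 0% to 3.43% of the LEF1 peaks, so an interval there is not read as occupancy. In the complete TCF7L2 lists, 1400 of the LEF1-only regions (36.3%) had a peak in all 3 libraries, 1206 in 2, 792 in 1 and 463 (11.99%) in none. The complete LEF1 lists had a peak in all 3 libraries for 798 TCF7L2-only regions (45.1%), in 2 for 298, in 1 for 272, and in none for 400 (22.6%). Regions with no peak of the other antibody at any rank made up 0.817% and 0.706% of all regions for LEF1 and TCF7L2. For comparison, regions with LEF1 in 1 or 2 libraries and no top TCF7L2 peak overlapped all 3 complete TCF7L2 lists in 16.8% of cases, and regions with TCF7L2 in 1 or 2 libraries and no top LEF1 peak overlapped all 3 complete LEF1 lists in 22.7%. At least 1 complete list of the other antibody was met by 75.1% and 48.5% of these comparison regions. For the LEF1-only and TCF7L2-only regions the shares were 88.0% and 77.4%, so an overlap of this kind was also frequent outside the exclusive classes. Of the lower-ranked TCF7L2 peaks at LEF1-only regions, 15.4% to 23.7% lay within the next 20000 ranks, and 28.5% to 46.2% had a q-value of 1. Among the lower-ranked LEF1 peaks at TCF7L2-only regions these shares were 21.7% to 28.3% and 0% to 1.73%. The median rank of these TCF7L2 peaks was 82070, 125786 and 116940 in replicates 1, 2 and 3, and that of these LEF1 peaks was 82402, 70542 and 82735.

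The limit of 20000 peaks cut the lists at different strengths. The last LEF1 peak taken had a −log10 q-value of 6.31, 6.28 and 6.40 in replicates 1 to 3, and the last TCF7L2 peak one of 0.996, 0.677 and 0.971. The first peak left out had the same value to 2 decimals in every list. The −log10 q-value reached 2 in every LEF1 library at all shared regions, and in all 3 TCF7L2 libraries at 1377 of them (55.1%). Among the TCF7L2-only regions 1076 (60.9%) met this in all 3 TCF7L2 libraries. With lists made only of peaks whose −log10 q-value reached 2, 1841 regions were shared, 23885 were LEF1-only and 594 were TCF7L2-only.

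LEF1 gave far more strong peaks, and TCF7L2 more peaks in all. The LEF1 lists held 284084, 212525 and 261074 peaks in replicates 1, 2 and 3, and the TCF7L2 lists 389886, 329941 and 337092. Every TCF7L2 list was longer than every LEF1 list. The difference, TCF7L2 minus LEF1, was 0.49 on the log2 scale (exact permutation test, two-sided, p = 0.1, the smallest that 3 libraries against 3 allow). Counting peaks whose −log10 q-value reached 5, the LEF1 lists held 27309, 25467 and 27301 peaks and the TCF7L2 lists 2401, 2450 and 3524. Again the groups did not overlap, now in the opposite direction, with 9.71-fold more LEF1 peaks (log2 difference −3.28, exact permutation test, two-sided, p = 0.1). The bases covered, at 136 ± 17.0 Mb for LEF1 and 120 ± 26.3 Mb for TCF7L2 (mean ± SD, n = 3 each), overlapped between the groups (log2 difference −0.20, exact permutation test, two-sided, p = 0.4). Over peaks whose −log10 q-value reached 2 or 5 the difference was −3.09 or −3.37, with more bases for LEF1 (exact permutation test, two-sided, p = 0.1 for each).

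The length of the shortest peak set replicate 1 apart from replicates 2 and 3, in opposite directions for the 2 antibodies. The shortest peak was 164 bp in LEF1 replicate 1 and 187 and 197 bp in replicates 2 and 3, against 193 bp and then 167 and 158 bp for TCF7L2. Within replicate 1 and within replicates 2 and 3, the log2 difference in peak number was 0.46 and 0.50. For the peaks whose −log10 q-value reached 5 it was −3.51 and −3.17. For bases covered the sign differed, with 0.21 in replicate 1 and −0.40 in replicates 2 and 3. What the shortest length reflects is not given in the sources used here.

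The stronger a LEF1 peak ranked, the more often TCF7L2 had a peak there. Of the 1000 strongest peaks of a LEF1 list, 74.6% ± 0.807 overlapped a top peak of a TCF7L2 list (mean ± SD over 3 LEF1 libraries, each averaged over the 3 TCF7L2 libraries). The share fell with every step in rank, to 60.4% ± 0.629 at ranks 1001 to 2000, 47.0% ± 0.197 at ranks 2001 to 5000, 32.8% ± 0.320 at ranks 5001 to 10000 and 20.2% ± 0.0301 at ranks 10001 to 20000. At each step the spread over libraries was far smaller than the drop. In the complete TCF7L2 lists, 96.2% ± 0.135 of the 1000 strongest LEF1 peaks were met.

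For TCF7L2 the strongest peaks were not the ones most often shared. Only 44.3% ± 5.41 of the 1000 strongest TCF7L2 peaks overlapped a top LEF1 peak (n = 3), with 40.7% in the lowest library and 50.5% in the highest. At ranks 1001 to 2000 the share was 55.8% ± 4.57, and it was 53.2% ± 2.94 at ranks 2001 to 5000. It then went down to 40.7% ± 2.30 and 22.8% ± 3.39 in the last ranges. These strongest TCF7L2 peaks were reproducible, since 98.0% of them were met in another TCF7L2 replicate. At ranks 10001 to 20000 only 16.7% ± 2.30 were, less than the share overlapped by the wider LEF1 peaks in the same libraries.

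Peak width moved with rank. LEF1 peaks had a median width of 2187 ± 207 bp among the first 1000 and of 1055 ± 113 bp at ranks 10001 to 20000, and TCF7L2 peaks 1553 ± 119 bp and 434 ± 48.8 bp (n = 3 each). Counted instead by a summit of the other antibody within 250 bp of the peak's own summit, which does not use the width, the share for LEF1 still fell at each step, from 61.2% ± 1.69 through 47.2%, 34.6% and 23.4% to 13.8% ± 0.642. For TCF7L2 it was 33.1% ± 4.92 in the first 1000, 42.5% ± 3.92 at ranks 1001 to 2000, 39.4% ± 0.846 at ranks 2001 to 5000, and 13.6% ± 2.47 at the last ranks.

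**Figure D2:**
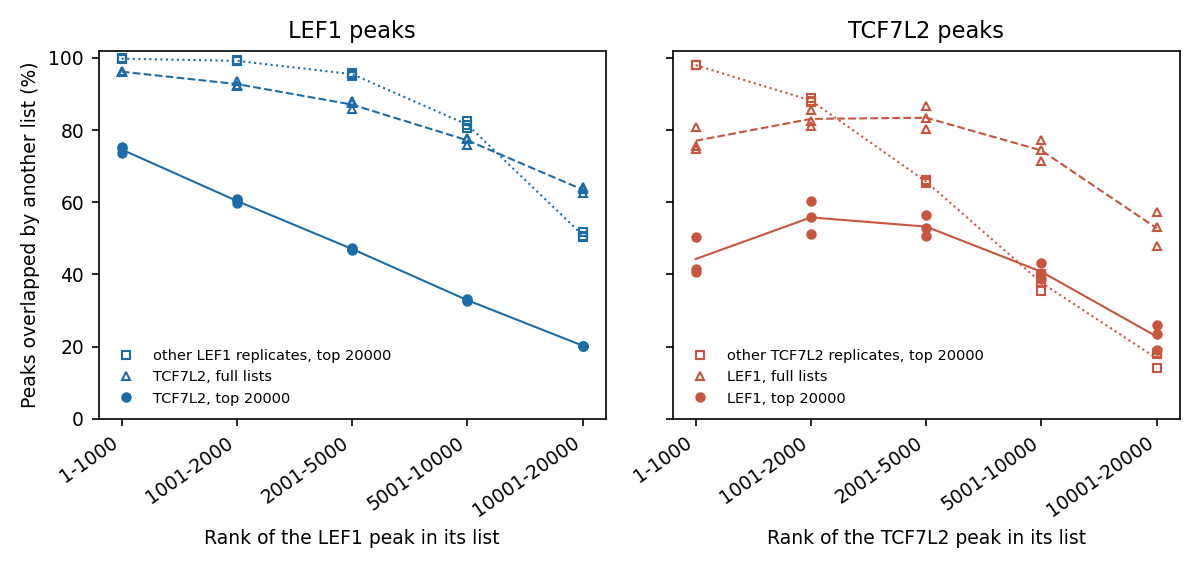
Percentage of LEF1 peaks (left) and TCF7L2 peaks (right) in 5 ranges of rank that overlap a peak of another list. Points are the 3 libraries and lines their means; filled circles are top peaks of the other antibody, triangles its full lists and squares top peaks of other replicates of the same antibody. LEF1 falls from 74.6% to 20.2%, whereas TCF7L2 starts at 44.3%, below the 55.8% of its next range.

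By their top peaks, libraries of one antibody resembled each other more than those of the other. Measured as the bases shared by 2 lists of top peaks over the bases in either (Jaccard index), the 3 LEF1 pairs had 0.465 to 0.510, the 3 TCF7L2 pairs 0.229 to 0.275, and the 9 mixed pairs 0.118 to 0.144. No mixed pair reached the lowest pair within an antibody. The mean within antibodies exceeded the mean between them by 0.236 (exact permutation test, one-sided, p = 0.1, the smallest possible). In complete lists the order differed for TCF7L2: its pairs had 0.0784 to 0.0910, below all mixed pairs at 0.0976 to 0.107, whereas LEF1 pairs had 0.349 to 0.382. Among the top peaks of replicates 2 and 3 alone the LEF1 pair had 0.510, the TCF7L2 pair 0.275 and the mixed pairs 0.118 to 0.130.

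The order of strength was shared within an antibody more than across. Over the 2501 shared regions, Spearman's rho of the rank was 0.762 to 0.829 for LEF1 pairs, 0.484 to 0.553 for TCF7L2 pairs and 0.114 to 0.225 for mixed pairs. These coefficients are across regions, which are not replicates, and describe the lists only.

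Within shared regions the LEF1 peaks were the wider ones. The median width of the strongest peak per region was 1756, 1837 and 2044 bp in LEF1 replicates 1, 2 and 3, and 1018, 851 and 872 bp in TCF7L2 replicates 1, 2 and 3. All LEF1 libraries lay above all TCF7L2 libraries, by 2.06-fold (log2 difference −1.04, TCF7L2 minus LEF1, exact permutation test, two-sided, p = 0.1). The difference was −0.79 within replicate 1 and −1.17 within replicates 2 and 3, and −0.61 when the lists held the peaks whose −log10 q-value reached 2. Over all top peaks the medians were 1276 ± 133 bp and 545 ± 42.7 bp (n = 3 each, log2 difference −1.23, exact permutation test, two-sided, p = 0.1). Over complete lists the groups overlapped, with medians of 312, 401 and 409 bp for LEF1 and 318, 262 and 241 bp for TCF7L2 (log2 difference −0.45, exact permutation test, two-sided, p = 0.2). Between pairs of libraries, 59.0% to 74.2% of the TCF7L2 peaks in shared regions lay wholly inside the LEF1 peak, and 3.56% to 7.24% of the LEF1 peaks wholly inside the TCF7L2 peak.

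Their summits lay little farther apart than TCF7L2 summits were among replicates. The median summit distance was 40 to 59 bp between LEF1 replicates, 84 to 109 bp between TCF7L2 replicates and 92 to 137 bp between a LEF1 and a TCF7L2 library. The mixed pairs thus all exceeded the LEF1 pairs and overlapped in range with the TCF7L2 pairs. Their mean of 110 bp exceeded the mean within antibodies by 38.2 bp (exact permutation test, one-sided, p = 0.1, the smallest possible), a value that moved to 22.8 bp without LEF1 replicate 3, to 24.7 bp without LEF1 replicate 2 and to 60.3 bp without TCF7L2 replicate 1. Among replicates 2 and 3 alone the LEF1 pair had 40 bp, the TCF7L2 pair 84 bp and the mixed pairs 108 to 137 bp. The TCF7L2 summit fell inside the LEF1 peak at 93.1% to 96.0% of the shared regions, whichever libraries were paired. Shared regions are made of overlapping peaks and the LEF1 peaks were the wider, so a high share follows largely from the rule. The same rule limits how far apart the summits in a shared region can lie.

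Distances were shorter at stronger regions and where summits agreed among replicates. In the 25% of shared regions with the best ranks, mixed pairs had medians of 59 to 104 bp, and TCF7L2 pairs 59 to 74.5 bp. In the 25% with the poorest ranks these were 123 to 163 bp and 113 to 139 bp. At 508 shared regions the 3 replicates of each antibody placed their summits within 100 bp of one another. There the median LEF1 and median TCF7L2 summits were 42 bp apart, and at 395 of them (77.8%) the distance was at most 100 bp. A minority stood apart: at 72 of these 508 regions (14.2%) every LEF1 summit was more than 100 bp from every TCF7L2 summit. Over all shared regions, the 3 LEF1 summits lay wholly to one side of the 3 TCF7L2 summits at 642 (25.7%), and the median summits were more than 500 bp apart at 310 (12.4%).

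**Figure D3:**
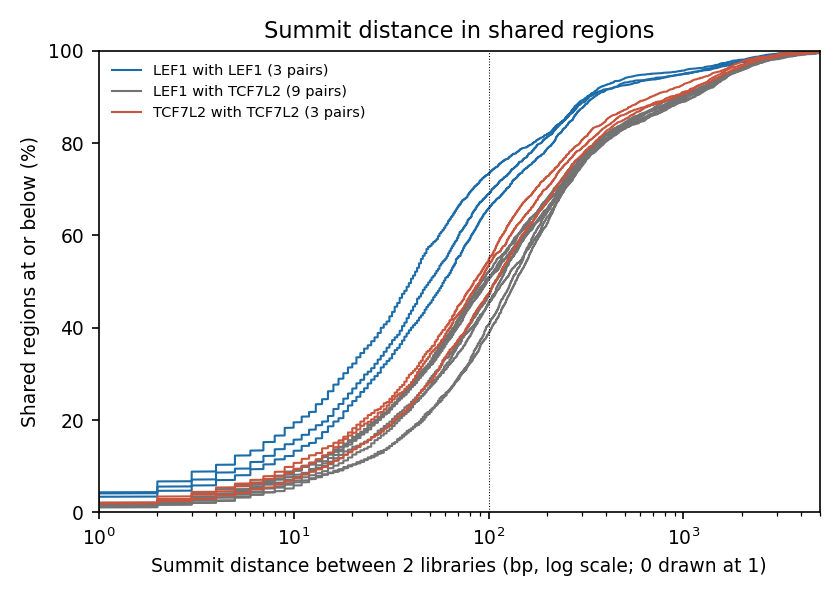
Cumulative percentage of the 2501 shared regions by the distance between the summits of 2 libraries, on a log axis in bp, with distances of 0 drawn at 1 and a dotted line at 100 bp. The 3 LEF1 pairs (blue) reach 65.9% to 73.4% at 100 bp, the 3 TCF7L2 pairs (red) 47.4% to 54.9% and the 9 mixed pairs (grey) 38.9% to 52.2%.

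LEF1 peaks were higher and broader where TCF7L2 was also found. Column 7 of the lists is the authors' fold enrichment at the summit over the background that the peak caller MACS2 modelled; whether IgG entered that background is not given in the sources used here, and fold is compared within a list only. In LEF1 replicates 1, 2 and 3 the median fold was 7.84, 7.97 and 7.92 in shared regions and 6.81, 6.94 and 6.86 in LEF1-only regions. The ratio was 1.15 ± 0.00363 (n = 3) and above 1 in every library. Where no TCF7L2 list had any peak the medians were lower still, at 6.29, 6.50 and 6.16. Widths followed the same order in each library: 1879 ± 149 bp in shared, 1265 ± 126 bp in LEF1-only and 887 ± 85.5 bp in the 463 LEF1-only regions without any TCF7L2 peak. Peaks of at least 2000 bp made up 45.3% ± 5.74 of the LEF1 peaks in shared regions, 17.4% ± 5.605 in LEF1-only regions and 2.16% ± 1.92 in those without any TCF7L2 peak. A shorter region has less room to meet an interval of the complete lists. The width in the 463 regions is therefore not independent of the rule that chose them.

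Width enters the overlap rule itself, so presence was also judged by the position of summits. The regions were still those merged from overlapping peaks, so the influence of width was not fully removed. A region called exclusive in this way can still hold a top peak of the other antibody with a more distant summit. Presence by summits was not used for the LEF1-only regions without any TCF7L2 peak. When a factor counted as present only with a summit within 250 bp of the strongest summit of the region, 1269 regions were shared and 3762 were LEF1-only, and the LEF1 peaks were again the wider in shared regions (1644 ± 97.5 bp against 1276 ± 128 bp) and the higher in fold (8.32 ± 0.176 against 6.995 ± 0.0271, n = 3). With lists of 5000 top peaks, however, the LEF1 fold ratio was 1.01.

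TCF7L2 signal differed little between shared and exclusive loci. Its median fold in replicates 1, 2 and 3 was 4.10, 4.16 and 4.35 in shared regions and 3.64, 3.99 and 4.27 in TCF7L2-only regions. The ratio, 1.06 ± 0.0573 (n = 3), was above 1 in every library but close to its own spread from 1. With lists of 5000 top peaks it turned to 0.964. Without TCF7L2 replicate 1 the ratio was 1.09 ± 0.00927 over the TCF7L2 libraries left, and the LEF1 ratio was then 1.10. Median widths in shared and TCF7L2-only regions were 914 ± 91.0 and 917 ± 52.5 bp, which differed by less than the spread between replicates. In the classes built from summits they were 846 ± 81.1 and 958 ± 47.6 bp (n = 3), so that the TCF7L2-only peaks were the wider by more than either SD. By rank the exclusive regions stood higher: their median rank was 2754 ± 353, against 3659 ± 353 for TCF7L2 in shared regions. LEF1 showed the opposite order, with a median rank of 3264 ± 31.8 in shared and 8581 ± 118 in LEF1-only regions.

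**Figure D4:**
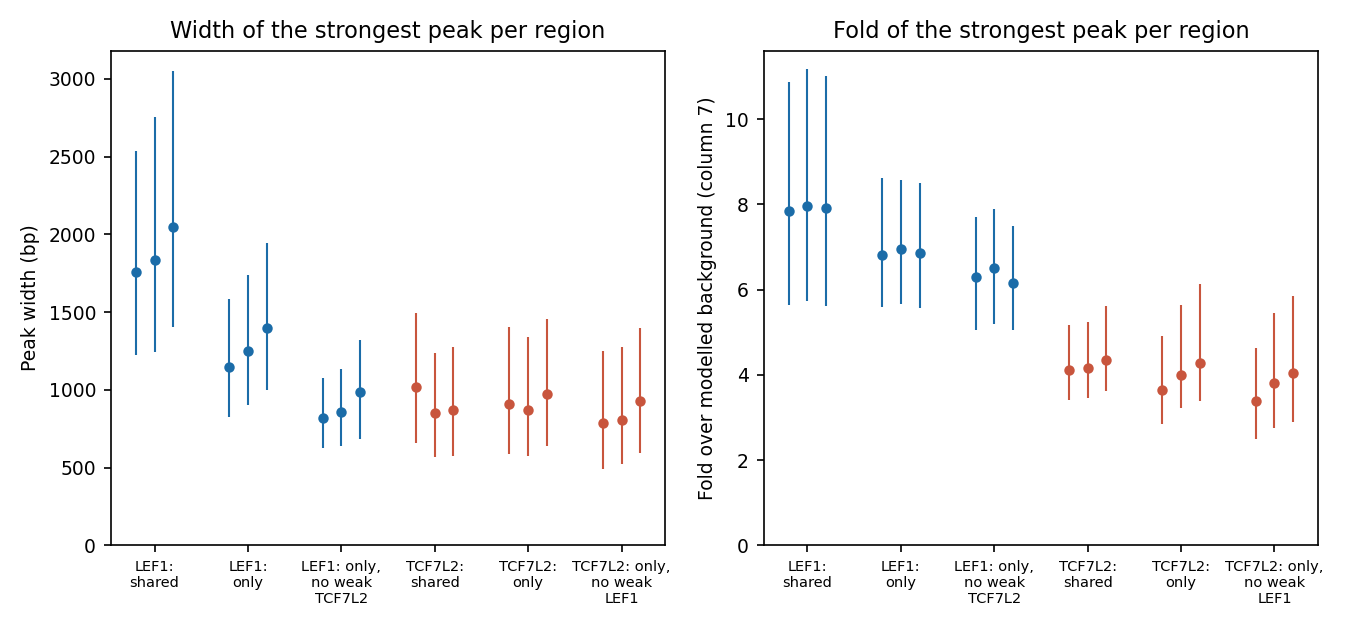
Median width in bp (left) and median fold over the modelled background (right) of the strongest peak per region, for each library and region class; points are libraries in the order of replicates 1 to 3, bars run from the first to the third quartile over regions. LEF1 widths (blue) step down from 1879 to 1265 to 887 bp on average from shared to exclusive regions, and TCF7L2 widths (red) are 914 bp and 917 bp in shared and TCF7L2-only regions.

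In libraries that had not been used to define them, the classes held in part. With classes called on 2 replicate numbers and looked up in the libraries of the third, 69.1%, 71.4% and 73.0% of the shared regions had a top peak of both antibodies (replicates 1, 2 and 3 left aside). Of the LEF1-only regions, 58.7%, 63.7% and 62.2% kept their pattern, and of the TCF7L2-only regions 54.1%, 67.4% and 70.4%. Replicate 1 was thus the poorest match for all 3 classes. In the libraries left aside, shared regions had a top LEF1 peak in 93.0% ± 0.979 of cases and a top TCF7L2 peak in 76.1% ± 1.91 (n = 3). LEF1-only regions had a top LEF1 peak in 75.9% and a top TCF7L2 peak in 17.3% of cases, and TCF7L2-only regions a top TCF7L2 peak in 69.1% and a top LEF1 peak in 8.03%.

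The classes defined in control cells were also visible in the 6 prednisolone libraries (5 µM for 24 h), which add independent lists but another condition. At LEF1-only regions, 72.5% ± 4.22 had a top LEF1 peak there and 8.78% ± 1.72 a top TCF7L2 peak. At TCF7L2-only regions 62.8% ± 11.4 had a top TCF7L2 peak and 9.37% ± 1.95 a top LEF1 peak. Shared regions had 91.3% ± 1.22 and 54.5% ± 8.48 for LEF1 and TCF7L2 (n = 3 each). For the 400 TCF7L2-only regions without any LEF1 peak in control cells, the share with a top LEF1 peak after prednisolone was 0.333% ± 0.382. The share with a LEF1 peak at any rank was 20.7% ± 7.42.

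The regions named here are those with the best worst rank among the libraries that must hold the peak. Coordinates are on hg19, the build in the submitters' processing notes. No sequence or annotation of hg19 was used here, so no region is assigned to a gene, exon or promoter. For the same reason none was checked for repeated or pericentromeric sequence. Signal unrelated to the antibodies was not excluded at any of them. Shared regions came first at chr9:140343074-140347376, which ranked 3, 4 and 5 in the LEF1 lists and 37, 22 and 27 in the TCF7L2 lists. Its folds were 35.5, 23.2 and 20.1 for LEF1 and 28.9, 39.6 and 38.1 for TCF7L2, and the median summits were 34 bp apart. At chr9:33174668-33178321 the TCF7L2 folds of 42.1, 29.3 and 44.4 stood beside LEF1 folds of 18.9, 16.1 and 15.7, and the summits were 223 bp apart, with 28 bp between the outermost TCF7L2 summits.

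The broadest of these shared regions, chr17:63551393-63558743, spanned 7351 bp. It ranked 42, 239 and 62 for LEF1 and 110, 38 and 103 for TCF7L2, with folds of 12.2, 8.75 and 8.86 and of 18.5, 23.4 and 30.7. Its summits scattered over 337 bp for LEF1 and 459 bp for TCF7L2, around the same median position. The region chr11:353397-356404 had folds of 28.0, 20.5 and 23.3 for LEF1 and of 19.7, 18.98 and 17.97 for TCF7L2, with summits 58 bp apart. A last one of this kind, chr22:49305629-49310999, had LEF1 folds of 15.3, 12.8 and 12.4 and TCF7L2 folds of 6.42, 10.97 and 11.7, with summits 19 bp apart. It was the only one of the 8 shared regions named with no TCF7L2 peak in any prednisolone list; the other 7 had a top TCF7L2 peak in all 3.

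The remaining 3 shared regions reached a high rank with a low fold. The region chr8:43094373-43097510 ranked 1 in every LEF1 list at folds of 2.53, 2.37 and 2.75, and TCF7L2 had folds of 1.32, 1.33 and 1.60 there, with summits scattered over 2086 bp. At chr18:18518286-18520308 the folds were 2.33, 2.20 and 2.40 for LEF1 and 1.39, 1.36 and 1.43 for TCF7L2. The LEF1 summits at this locus coincided to the base and the TCF7L2 summits within 7 bp, yet both sets lay 525 bp apart. At chr4:190970194-190971215 the folds ran from 3.56 to 4.01 and from 2.54 to 2.90. Regions of a median fold under 2 were rare in the classes: 17 of the shared (0.680%), 5 of the LEF1-only (0.130%) and 48 of the TCF7L2-only regions (2.71%). Of those 48, 43 were among the 400 without any LEF1 peak (10.75% of them). With low-fold peaks set aside, 2506 regions were shared, 3849 were LEF1-only and 1710 were TCF7L2-only.

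TCF7L2-only regions included the very strongest TCF7L2 peaks. The peak at chr7:2391807-2396212 ranked 1 in all 3 TCF7L2 lists, with folds of 49.5, 62.2 and 68.3, and no LEF1 control list had a peak there. The next, chr5:137672090-137675716, ranked 3 in each list with folds of 44.3, 54.1 and 65.1. Next came chr19:42803455-42811921, a domain of 8467 bp that ranked 4 in each list, with folds of 31.2, 45.8 and 48.8. The order of the first ranks was thus the same in the 3 independent libraries.

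Further TCF7L2-only regions without any LEF1 peak were chr10:99078057-99080581 (folds 28.2, 33.1 and 39.996), where the TCF7L2 summits agreed to 1 bp, chr22:29662914-29665899 (28.4, 34.7 and 39.7), chr19:12847337-12849403 (18.05, 27.3 and 32.8), chr10:127510908-127513649 (36.8, 29.4 and 50.003) and chr19:49621489-49622898 (15.2, 17.5 and 20.6). All 8 had a top TCF7L2 peak in each of the 3 prednisolone libraries, none had a top LEF1 peak there, and 4 had no LEF1 peak at any rank. Over the whole class, the region ranked 2 in each list was chr1:1622385-1627305, with folds of 29.6, 32.2 and 38.2. LEF1 replicates 1 and 3 had peaks of fold 1.81 and 1.51 in it, at ranks 263087 and 218949, and replicate 2 had none.

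LEF1-only regions without any TCF7L2 peak were weaker within their lists. The best was chr20:29590569-29592142, which ranked 307, 361 and 229 in the LEF1 lists with folds of 7.31, 6.79 and 7.49. The highest folds among these 8 were at chr18:76478249-76479620, with 23.4, 24.8 and 21.3. At chr13:28400580-28401548 they were 10.7, 11.9 and 10.7. Others were chr17:27696825-27697950, chr11:74746393-74748320, chr16:30639835-30640899 and chr11:34606801-34608573, with folds between 6.47 and 10.3. The region chr2:92321554-92321927, was only 374 bp long and had folds of 1.84, 1.70 and 1.90, and it was the only region of the 8 with a top TCF7L2 peak in prednisolone libraries (2 of 3). All 8 had a top LEF1 peak in each prednisolone library.

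Much higher-ranked LEF1 peaks of the LEF1-only class overlapped a low-ranked TCF7L2 interval. At the 4 regions named here no such interval had a −log10 q-value above 0.538, so it is not read as occupancy. At chr9:68477037-68478274, which ranked 5, 5 and 4 in the LEF1 lists with folds of 26.0, 23.3 and 24.9, TCF7L2 replicates 2 and 3 had peaks of fold 1.78 and 2.39, at ranks 316112 and 128326. At chr8:30084275-30086101 the LEF1 folds were 33.5, 21.3 and 24.4 and the TCF7L2 folds 2.98, 2.51 and 3.02. The region chr1:144620943-144622030 had LEF1 folds of 29.9, 32.3 and 31.5 and TCF7L2 folds of 1.99, 2.54 and 3.02. The last of these 4, chr7:100550663-100551223, had LEF1 folds of 4.31, 3.90 and 3.93 and a TCF7L2 peak of fold 1.20 in replicate 3 alone.

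Chromosome 19 carried more of TCF7L2 than of LEF1. It held 3.47%, 4.06% and 4.53% of the top TCF7L2 peaks in replicates 1, 2 and 3, and 2.19%, 2.11% and 2.09% of the top LEF1 peaks. Every TCF7L2 library lay above every LEF1 library, by 1.89 percentage points on average (exact permutation test, two-sided, p = 0.1). This comparison was not among those planned, and shares were computed for all 24 chromosomes. The difference was 3.5 points with 5000 peaks per list and 0.590 points in complete lists. Of the TCF7L2-only regions 150 (8.48%) were on this chromosome, and of the 400 without any LEF1 peak 57 (14.25%). It held 2.02% of the LEF1-only regions, 3.04% of the shared regions and 3.23% of all regions. In all, 4 of the 24 chromosomes (16.7%) had every TCF7L2 library above every LEF1 library, namely 16, 17, 19 and X, and 7 (29.2%) had the reverse. Chromosome X held 5.204% of the TCF7L2-only and 1.06% of the LEF1-only regions, and 1.85% of all regions. In complete lists the order at chromosomes 16, 19 and X was the same, but at chromosome 17 it was reversed, with 3.29% to 3.68% of the TCF7L2 and 3.73% to 3.86% of the LEF1 peaks. The points of TCF7L2 replicate 2 at chromosomes 1 and 2 (13.4% and 11.1%) stand above the other libraries: in its list 1659 of the peaks taken and 7881 of those left out had the same values as the last one taken, and equal peaks were taken in order of position.

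**Figure D5:**
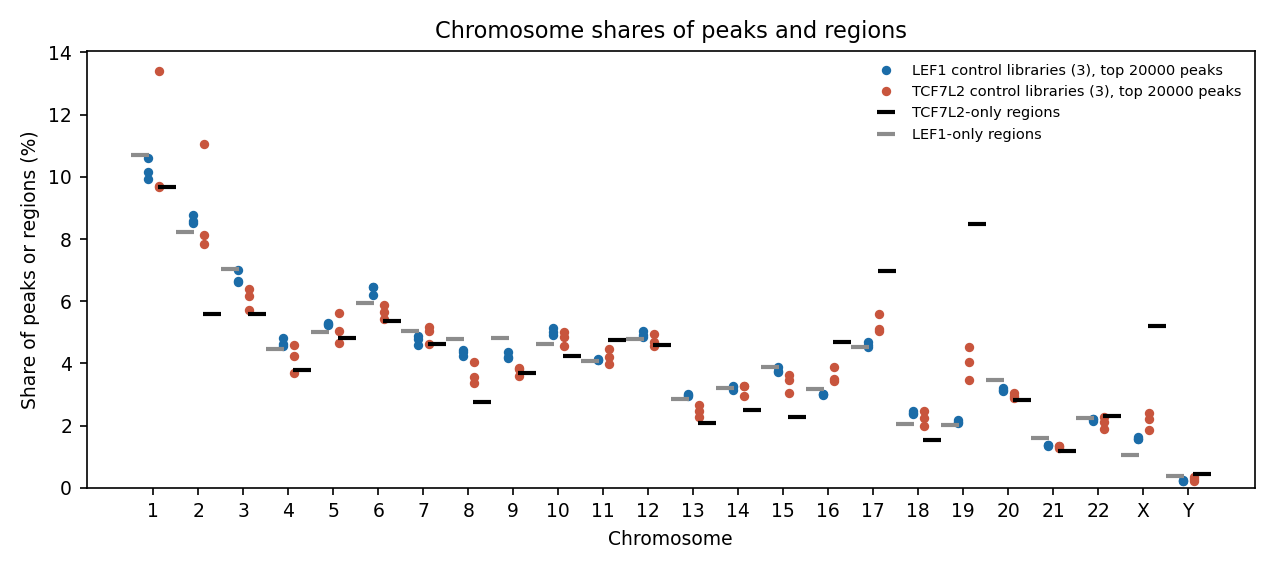
Percentage of the top peaks of each control library (points, LEF1 in blue and TCF7L2 in red) and of the LEF1-only (grey bars) and TCF7L2-only (black bars) regions on each chromosome. TCF7L2-only regions stand at 8.48% on chromosome 19, against 2.02% of the LEF1-only regions.

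Distances between the classes are given with their sizes, 2501, 3861 and 1768, since a class with more regions has nearer neighbours. From a LEF1-only region the nearest shared region was at a median of 237 kb and the nearest TCF7L2-only region at 682 kb, with 7.46% and 1.502% within 10 kb. From a TCF7L2-only region the nearest shared and LEF1-only regions were at 248 kb and 256 kb, with 5.83% and 3.39% within 10 kb. A neighbour of the same class lay within 10 kb for 16.5% of the TCF7L2-only, 9.87% of the LEF1-only and 13.6% of the shared regions. Of the 463 LEF1-only regions without any TCF7L2 peak 4 had such a neighbour (0.864%), and of the 400 TCF7L2-only regions without any LEF1 peak 66 (16.5%), sets of similar size.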

How the data were processed

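CUT&RUN peak lists of 6 control libraries from Nalm6 cells were used, with the 6 prednisolone lists as a look-up; the IgG sample was not analysed here. Per the submitters' processing notes, MACS2 and hg19 were used; other steps, including versions and the control, are not given in the sources used here. In the deposited lists, column 7 holds the authors' fold enrichment, and columns 8 and 9 the authors' −log10 p-value and −log10 q-value. One list was deposited for each library.

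Peaks were ranked by −log10 p-value, then fold, then position, and the first 20000 of each list were merged at 1 bp of overlap. Libraries were the replicates. The 2 antibodies were compared with exact permutation tests, whose smallest p with 3 libraries against 3 is 0.1. Scripts (Python 3.11.15, numpy 2.4.6, pandas 2.3.3, scipy 1.17.1) were tested on simulated data. Named regions are, per class, the 8 with the best worst rank (for exclusive classes, 8 without any peak of the other antibody and the best 4 of the class). No list pair was a duplicate, since at most 0.0221% of intervals were identical. Gene assignment and motif search were planned for a reference of hg19 and were not run. Members and lists were chosen with earlier results of these data known. The comparison of chromosome shares, with its test, was not among those planned. The alternatives with a fold of at least 2, similarity in full lists, those for chromosome 19, the ranks met by a summit and the widths by summit class were chosen after seeing the data.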

Additional observations from a re-analysis of the deposited data

How the results depend on the processing

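Of 133 recomputed values, 96 kept their direction and stayed within 1.5 times the reported value, 15 kept their direction but differed by more than 1.5 times, 19 moved (a count by over 1.5 times, a fold ratio by more than its SD) and 3 reversed. Of those 15, covered bases were −3.09 and −3.37 (log2) when the −log10 q-value had to reach 2 or 5 and −0.37 to −0.092 with 1 library left out. Peak width was −0.45 in full lists, width in shared regions −0.61 at a −log10 q-value of 2, and similarity within minus between antibodies 0.123 in full lists, an alternative chosen after seeing the data. The chromosome 19 difference was 3.5, 0.590 and 2.94 points with 5000 peaks, full lists and that q-value, and the summit difference 22.8 to 60.3 bp with 1 library left out. Peak number (log2, TCF7L2 minus LEF1) turned to −3.03 and −3.28 when the −log10 q-value had to reach 2 or 5, and the TCF7L2 fold ratio turned to 0.964 with 5000 peaks per list. Shared regions numbered 511 with 5000 peaks per list, 5372 with 50000, 1269 by summits within 250 bp and 23024 in full lists. LEF1-only regions numbered 1263, 9432 and 28046 with 5000, 50000 and all peaks and 23885 with the −log10 q-value at 2, and TCF7L2-only regions 5311 in full lists and 594 with that q-value. The LEF1 fold ratio was 1.01, 1.31 and 1.305 with 5000 peaks, 50000 peaks and that q-value. Leaving out 1 library gave 2639 to 3318 shared, 4720 to 5557 LEF1-only and 1886 to 3007 TCF7L2-only regions (3007 without TCF7L2 replicate 1). The LEF1 fold ratios were then 1.10 to 1.17 and the TCF7L2 fold ratios 1.06 to 1.10. The cause of these changes was not tested, except that a class asks for fewer libraries once 1 is left out. Same-numbered libraries did not deviate together (correlations −0.0124, −0.0042 and −0.0064). A replicate block changes only which labels are exchanged, so its values stayed as they were by construction (log2 peak number 0.49). They are counted among the 96 all the same. The smallest possible p in a block was 0.25 in an exact test. Read depth is unknown, so its effect on list length and on peak width was not tested.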
